A study of Mus musculus with 8 samples.

Results

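The genes described here encode feedback regulators of the ERK pathway: the dual-specificity phosphatases Dusp4, Dusp5 and Dusp6, the Sprouty genes Spry1, Spry2 and Spry4, the Sprouty-related genes Spred1 and Spred2, and the ETS transcription factor genes Etv4 and Etv5. They were taken from the count table by symbol. All 10 were found among its 46983 gene identifiers, and all 10 passed the filter on low counts, as 15638 identifiers did in all. Ppp1r8 encodes NIPP1, which binds the phosphatase PP1 in the nucleus, and the study deleted it in skin. RNA of tail epidermis was sequenced at an age of 8 weeks in 8 mice, with a library for each. The 4 CTR mice had the genotype K14-Cre/+ Ppp1r8 fl/+, with 1 floxed and 1 wild-type allele. The 4 SKO mice had the genotype K14-Cre/+ Ppp1r8 fl/-, with 1 floxed and 1 null allele. Both groups therefore carried the Cre transgene and a floxed allele, and CTR keratinocytes are not wild type. The K14 promoter is active in basal keratinocytes, the follicle epithelium included, so melanocytes, Langerhans cells and T cells of the same sheet are not its targets, while every cell of an SKO mouse carries the null allele.

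Growth factor receptors such as the EGF and FGF receptors switch on RAS, which activates the kinases RAF, MEK and ERK in turn. Active ERK induces genes whose products damp the same pathway, and their mRNA levels are widely used as a readout of ERK output. DUSP phosphatases remove the activating phosphates from ERK, Sprouty proteins act between receptor and RAF, and SPRED proteins recruit the RAS inhibitor neurofibromin to the membrane. ETV4 and ETV5 carry ERK and FGF signals to target genes. In skin, EGFR and ERK signalling sustains keratinocyte growth, and FGF signals act in the hair follicle. ERK protein and its phosphorylation were not analysed here.

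Total counts per library ranged from 16696212 to 21571935. The first principal component of log2 CPM (reads of a gene per 1000000 reads of its library, after normalization) held 61.8% of the variance and separated the groups. Ppp1r8 itself had 37.9 ± 3.57 CPM in CTR against 36.3 ± 7.99 CPM in SKO over all its exons (mean ± SD of 4 libraries, edgeR adjusted p = 0.789). The sources used here do not give the deleted exons, so this value does not check the genotypes. Keratinocyte genes were abundant (Krt5 at 8783 and 8333 CPM, Krt14 at 4173 and 4478 CPM in CTR and SKO). Of genes that define fibroblasts and endothelium, Col1a1 had 2.42 and 2.09 CPM, Pdgfra 0.608 and 0.386 CPM and Cdh5 0.145 and 0.0385 CPM in CTR and SKO, where 3 counts equal 0.139 to 0.180 CPM per library. The 10 fibroblast and dermal papilla markers together summed to 55.7 to 74.1 CPM in CTR and 74.7 to 103 CPM in SKO. The most abundant of them were Dcn, at 31.073 and 34.489 CPM, and Vim, at 20.957 and 49.772 CPM in CTR and SKO. Vim was higher in SKO by the edgeR test (adjusted p = 0.000929), and Dcn did not pass.

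With group as the only term, the feedback genes did not move as a block. Dusp4 and Etv5 were higher in SKO, Dusp5 and Spred2 were lower, and Dusp6, Spry1, Spry2, Spry4, Spred1 and Etv4 did not pass the test. In fits with hair shaft marker or Xist level as a further term, described below, the falls of Dusp5 and Spred2 were not kept. None of the 10 genes passed there. The 4 called genes make up 40% of the 10, beside 23.7% of all tested genes called in either direction (edgeR quasi-likelihood test, Benjamini-Hochberg adjusted p under 0.05 over all 15638 genes). By direction, 2 of the 10 were higher, beside 11.5% of all genes, and 2 were lower, beside 12.2%. The groups did not overlap in CPM for 4 of the 10, beside 26.2% of all tested genes. In a fit that paired the CTR and SKO mice whose numbers are neighbours in the labels, Spry1 (lower) and Etv4 (higher) passed as well. That made 6 of the 10, beside 27.6% of all tested genes in the same fit. The median log2 fold change was 0.0085 over the 10 genes and -0.0026 over all tested genes, and the median size of the change, regardless of direction, was 0.34 and 0.22. In bulk tissue, fewer cells of a type and less RNA per cell cannot be told apart.

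Per kilobase of annotated exon, Spry1 stood at the top in CTR with 20.1 ± 2.36 RPKM (CPM per kilobase, mean ± SD of 4 libraries), followed by Dusp5 at 17.6, Dusp6 at 13.3, Spred1 at 12.0, Spry2 at 10.1, Spred2 at 9.08 and Etv4 at 8.09 RPKM. Each of these 7 overlapped its neighbour in that order over the 4 libraries. Dusp4 at 3.82 and Etv5 at 3.11 RPKM overlapped each other but lay below Etv4 in every library. Spry4 was lowest, at 0.716 ± 0.223 RPKM, below all the others. In SKO the order was the same except that Etv4, at 10.4 RPKM, stood above Spred2, at 7.27 RPKM, and these were then apart. The low-level genes Dusp4 and Etv5 thus stood closer to the rest in SKO, at 6.78 and 4.40 RPKM.

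Promoter sequences, 250 bases before to 50 after the start of transcription, were taken from the RefSeq table (GRCm38.p6) for 7 of the 10 genes. They are shown for the called genes Dusp5, Spred2 and Etv5, because they show what the 2 genes that fell and 1 that rose have at their start sites. Each runs 5′ to 3′ on the gene's strand, and capitals mark matches to the motifs described next: chr19:53528895-53529194, plus strand, for Dusp5, chr11:19924192-19924491, plus strand, for Spred2, and chr16:22439521-22439820, minus strand, for the upstream of 2 Etv5 starts.
Dusp5: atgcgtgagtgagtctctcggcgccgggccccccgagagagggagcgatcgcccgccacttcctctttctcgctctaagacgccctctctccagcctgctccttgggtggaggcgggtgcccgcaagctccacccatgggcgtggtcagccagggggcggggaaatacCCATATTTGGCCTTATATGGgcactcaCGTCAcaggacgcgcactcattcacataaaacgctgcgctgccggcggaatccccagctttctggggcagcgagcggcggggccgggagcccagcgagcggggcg
Spred2: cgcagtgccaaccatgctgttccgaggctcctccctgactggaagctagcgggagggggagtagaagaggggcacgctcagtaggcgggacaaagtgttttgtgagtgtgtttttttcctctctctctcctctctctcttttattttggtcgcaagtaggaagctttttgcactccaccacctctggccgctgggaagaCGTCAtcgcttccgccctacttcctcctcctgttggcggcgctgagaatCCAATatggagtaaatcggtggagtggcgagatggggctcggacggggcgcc
Etv5: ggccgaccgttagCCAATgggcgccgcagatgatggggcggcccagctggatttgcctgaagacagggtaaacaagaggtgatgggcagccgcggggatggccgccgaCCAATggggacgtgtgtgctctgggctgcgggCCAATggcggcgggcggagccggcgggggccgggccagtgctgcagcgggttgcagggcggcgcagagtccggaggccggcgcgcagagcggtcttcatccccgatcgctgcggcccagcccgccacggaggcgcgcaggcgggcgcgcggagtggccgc
Motifs were searched on both strands, and the last 3 were chosen after these sequences had been seen. The string CCGGAA, a form of the ETS site, was in 14.9% of all 32851 promoters of this length and, of the 7 genes, in Spry2 alone. ETS sites with other bases around GGAA were not searched, so the other promoters may still hold such sites. The AP-1 site TGANTCA was in 7.81% of all and in 0 of the 7. The CArG box, to which serum response factor binds beside ERK-activated ternary complex factors, was in 1.63% of all promoters and occurred 2 times in Dusp5, at positions 169 and 179 of the 300 bases. The CRE core TGACG was in 20.8% of all, and in Dusp5 and Spred2. The CCAAT box was in 37.4% of all, and in 4 of the 7 genes, with 3 matches in Etv5. A match describes the letters only.

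Dusp4 encodes a nuclear phosphatase that inactivates ERK and other MAP kinases (ENSMUSG00000031530.6, GRCm38 chromosome 8, 34807297 to 34819894). It had 11.8, 10.0, 7.97 and 12.1 CPM in CTR 1 to 4 and 15.1, 17.4, 21.3 and 20.5 CPM in SKO 1 to 4. Every SKO library lay above every CTR library. The rise was 1.77-fold (log2 fold change 0.82, SE 0.16, edgeR adjusted p = 0.00540) and larger than that of 90.0% of tested genes regardless of direction. It was the only one of the 10 whose call held whichever single library was left out (log2 fold change 0.72 to 0.92, adjusted p at most 0.0190).

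Dusp5, a nuclear phosphatase specific to ERK, went the other way (ENSMUSG00000034765.6, chromosome 19, 53529109 to 53542431). CTR 1 to 4 had 42.4, 48.3, 44.5 and 39.3 CPM, and SKO 1 to 4 had 30.2, 37.2, 38.2 and 31.2 CPM. The groups were apart, with CTR 4 and SKO 3 the nearest to each other. The level was 1.28-fold lower in SKO (log2 fold change -0.35, SE 0.10, adjusted p = 0.0320), and the call ended without CTR 1, CTR 2, CTR 3, SKO 1 or SKO 4 (adjusted p up to 0.0860). An annotated antisense transcript shares 547 exonic bases with Dusp5, and as the sources used here do not give the strand setting of the counting, reads of both cannot be told apart.

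Dusp6, the cytoplasmic ERK phosphatase and the feedback gene most used as an ERK readout, showed no detectable difference. It had 31.3, 54.2, 40.2 and 41.2 CPM in CTR 1 to 4 and 39.7, 48.3, 43.6 and 40.0 CPM in SKO 1 to 4. All SKO values lay within the CTR range. The log2 fold change was 0.040, with a 95% interval from -0.29 to 0.37, so that smaller changes could be missed. It was 0.34 (SE 0.26) with hair shaft marker level and 0.47 (SE 0.25) with Xist level as a further term. Neither value passed the threshold. Counted within each library, the ratio of Dusp4 to Dusp6 reads was 0.378, 0.185, 0.199 and 0.293 in CTR and 0.380, 0.361, 0.489 and 0.513 in SKO. CTR 1 overlapped the SKO libraries. An exact two-sided permutation test over the 8 libraries gave p = 0.0571, where 0.0286 is the smallest p possible (0.214 after adjustment over 5 ratios).

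**Figure D1:**
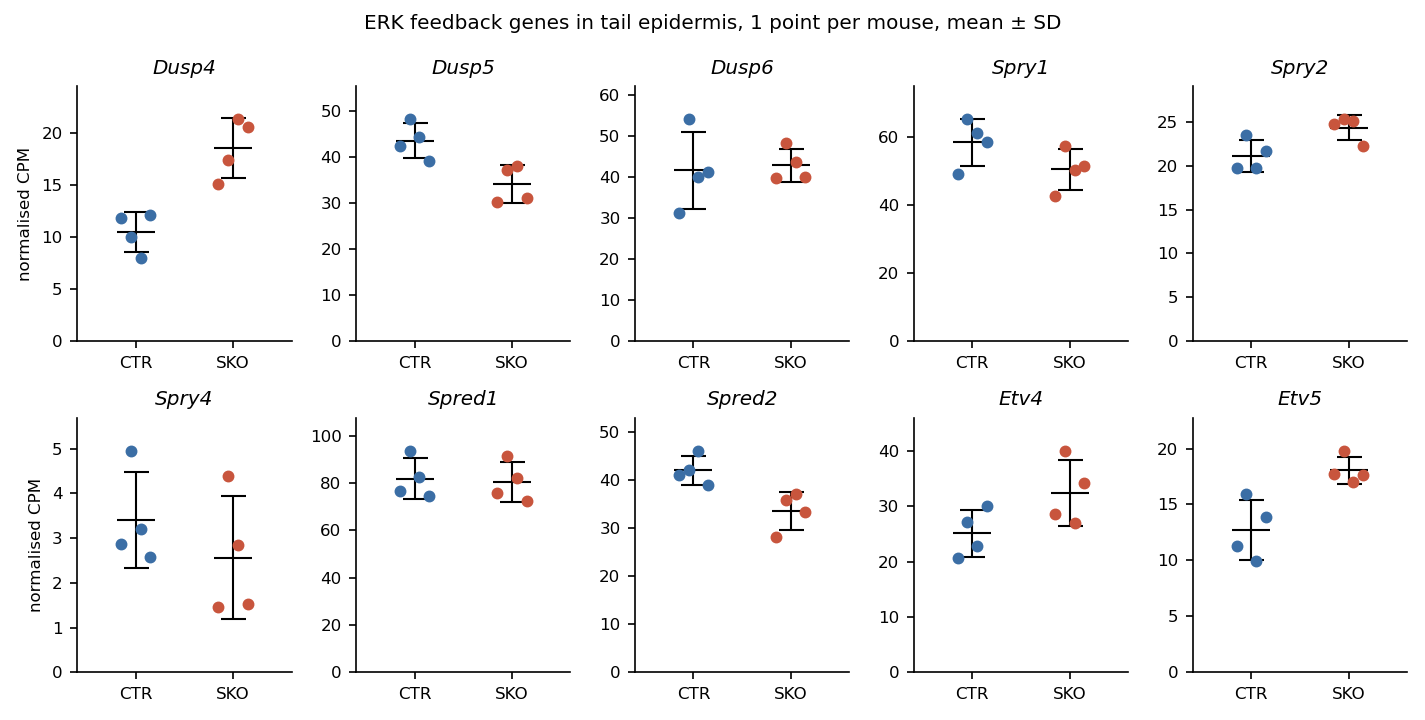
Normalised CPM (y axis, from 0) of the 10 genes in 4 CTR and 4 SKO mice; each point is 1 library, placed left to right by replicate number, with the mean and SD in black. Points of the 2 groups are apart for Dusp4, Dusp5, Spred2 and Etv5 and overlap for the other 6 genes.

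No Sprouty gene passed the unpaired test. Spry1 had 49.1, 65.2, 61.2 and 58.4 CPM in CTR 1 to 4 and 42.8, 57.2, 50.4 and 51.4 CPM in SKO 1 to 4 (log2 fold change -0.21, 95% interval -0.46 to 0.031, adjusted p = 0.184), and SKO 2, SKO 3 and SKO 4 lay within the CTR range. With neighbouring mice as a block it passed (-0.21, SE 0.066, adjusted p = 0.0456). Gm42922, annotated on the opposite strand, shares 710 exonic bases with Spry1 and averaged 0.550 CPM. The limit from the unknown strand setting, given for Dusp5, holds for Spry1 too. Spry2 had 19.7, 23.6, 19.7 and 21.6 CPM and 24.7, 25.3, 25.1 and 22.3 CPM (0.20, interval 0.0059 to 0.40, adjusted p = 0.123). For Spry2, 3 SKO libraries lay above all CTR libraries and SKO 4 lay within their range. Spry4 had 52 to 103 reads per CTR library and 28 to 87 per SKO library, and its coefficient of variation was 31.2% and 53.8%. It had 2.87, 4.95, 3.21 and 2.59 CPM in CTR and 1.47, 4.39, 2.85 and 1.53 CPM in SKO, 2 low libraries and 2 within the CTR range (-0.41, interval -1.20 to 0.39, adjusted p = 0.433). The ratios Spry1 to Spry4 and Spry2 to Spry4 were 1.23-fold and 1.65-fold higher in SKO, but neither passed the exact permutation test (p = 0.429 and 0.171, or 0.429 and 0.286 after adjustment).

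The 2 Spred genes differed in their calls, though the difference between them was not past the threshold. Spred1 had 76.5, 93.6, 82.4 and 74.3 CPM in CTR 1 to 4 and 75.8, 91.4, 82.2 and 72.4 CPM in SKO 1 to 4. The values of the groups were almost the same (log2 fold change -0.023, 95% interval -0.24 to 0.19, adjusted p = 0.884). Spred2 (ENSMUSG00000045671.17, chromosome 11, 19924375 to 20024026) had 40.9, 42.0, 46.0 and 38.9 CPM in CTR and 28.2, 35.8, 37.0 and 33.3 CPM in SKO. Every SKO library lay below every CTR library, a 1.25-fold lower level (-0.32, SE 0.10, adjusted p = 0.0391). That call held only without CTR 4 or without SKO 3, and ended in the 6 fits that left out another library (adjusted p up to 0.103) and with no count filter (0.0517). The ratio of Spred1 to Spred2 reads was 1.79 to 2.23 in CTR and 2.17 to 2.69 in SKO libraries (p = 0.0857 by the exact permutation test, 0.214 after adjustment).

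Both ETS genes had higher means in SKO. Etv5 (ENSMUSG00000013089.15, chromosome 16, 22381309 to 22439719) had 11.3, 15.9, 9.95 and 13.9 CPM in CTR 1 to 4 and 17.8, 19.8, 17.0 and 17.7 CPM in SKO 1 to 4. The groups were apart and the SKO libraries were the more alike, with a coefficient of variation of 6.70% against 20.9% in CTR. The rise was 1.41-fold (log2 fold change 0.50, SE 0.14, adjusted p = 0.0300), and the call ended without CTR 1, CTR 3, SKO 2 or SKO 4 (adjusted p up to 0.0789). Etv4 had 20.6, 27.1, 22.8 and 30.0 CPM in CTR and 28.5, 40.0, 27.0 and 34.2 CPM in SKO. Its 1.29-fold higher mean did not pass (0.37, SE 0.15, adjusted p = 0.104), and SKO 1 and SKO 3 lay within the CTR range. It passed with neighbouring mice as a block (0.37, SE 0.091, adjusted p = 0.0206). The Etv4 to Etv5 ratio did not separate the groups (p = 0.314 by the exact permutation test, 0.393 after adjustment).

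**Figure D2:**
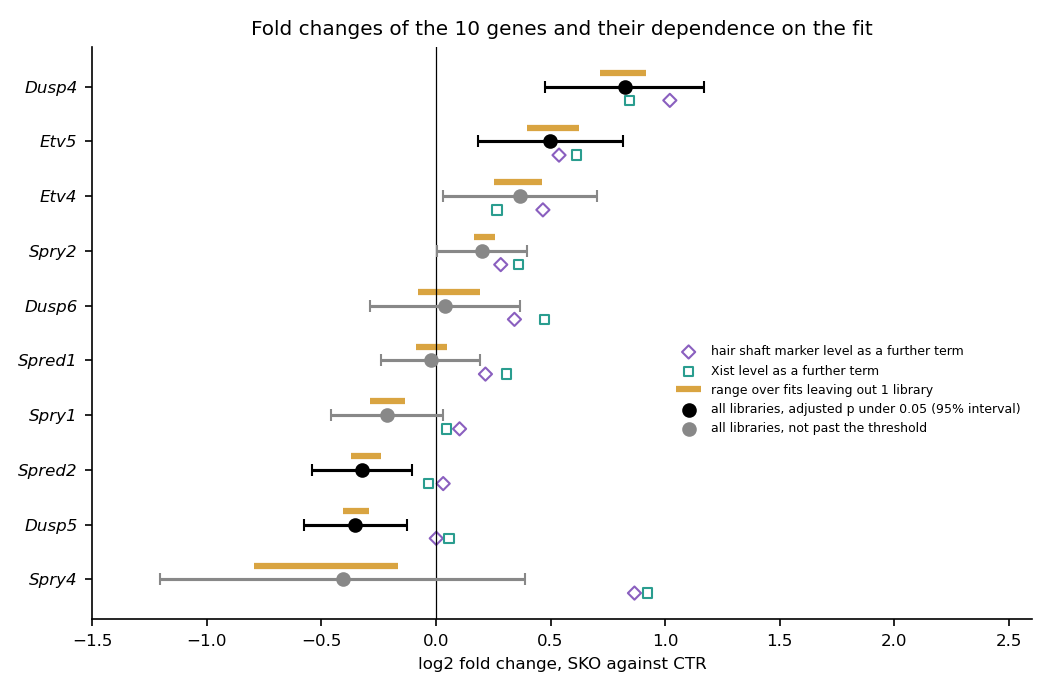
Log2 fold change, SKO against CTR (x axis), of each gene (y axis): circles with 95% intervals are fits on all 8 libraries, black where adjusted p was under 0.05; bars show the range over 8 fits that leave out 1 library, open diamonds and squares fits with hair shaft marker level or Xist level as a further term. The Dusp5 and Spred2 values move to about 0 with either term, and the Dusp4 value stays between 0.72 and 1.02 in all the fits shown.

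Hair shaft markers moved with the groups and, among SKO but not CTR mice, ranked as the genes that fell did. Of 10 hair shaft genes 8 fell and all 10 were apart between groups, with a summed level of 5272 to 7978 CPM in CTR and 490 to 2747 CPM in SKO. Their mean log2 CPM was 4.24, 6.79, 7.56 and 5.46 in SKO 1 to 4, and 8.57, 9.26, 9.32 and 8.87 in CTR 1 to 4. From low to high, SKO 1, SKO 4, SKO 2 and SKO 3 had the same order for hair shaft markers, Dusp5 and Spred2. In CTR the orders differed, with CTR 1 lowest for hair shaft markers and CTR 4 lowest for both genes. With this mean as a further term, the log2 fold changes of Dusp5 and Spred2 were 0.0015 and 0.032 (SE 0.15 and 0.14), in place of -0.35 and -0.32. Those of Dusp4 and Etv5 were 1.02 and 0.54 (SE 0.28 and 0.27), in place of 0.82 and 0.50. None of the 4 calls was kept in that fit (adjusted p = 0.998, 0.944, 0.105 and 0.357), in which 135 of all genes were called. The log2 fold changes of the other 6 feedback genes were positive in that fit too, and none of them passed. As the hair levels of the groups do not overlap, genotype and hair content cannot be told apart, for the 4 called genes or the other 6. Xist, 791 ± 152 CPM in CTR and 419 ± 114 CPM in SKO, had the same order in SKO. From low to high in CTR, Xist ordered the libraries CTR 4, CTR 1, CTR 3 and CTR 2, as Dusp5 did and Spred2 did not. The fit with Xist as a further term ended the 4 calls too. Its log2 fold changes were 0.85 for Dusp4 and 0.61 for Etv5, as large as without Xist, and 0.057 for Dusp5 and -0.032 for Spred2. Among the 10 feedback genes, only the Spred2 value was negative in the Xist fit.

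**Figure D3:**
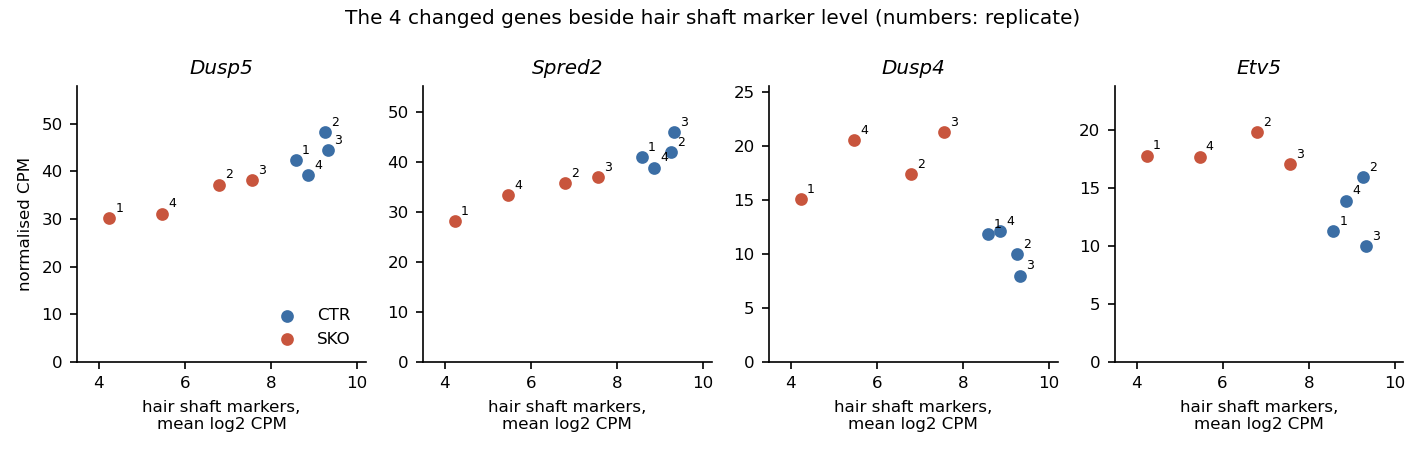
Normalised CPM of the 4 called genes (y axes, from 0) against the mean log2 CPM of 10 hair shaft markers (x axes); each point is 1 library, numbered by replicate. Among SKO libraries Dusp5 and Spred2 rank as the hair markers do. Dusp4 departs from that order only in that SKO 2 and SKO 4 change places. SKO 3 has the highest hair level of its group, at 7.56, and the highest Dusp4 level, at 21.3 CPM. Etv5 ranks otherwise, with SKO 3 lowest.

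Marker lists of other cells were compared in the same libraries. None of 11 lists passed the exact permutation test on its mean log2 CPM after adjustment (lowest adjusted p = 0.0629). The keratinocyte, hair shaft, hair matrix, T cell and Langerhans cell lists had the smallest p possible in the exact permutation test (p = 0.0286). As adjustment took even that p past the threshold, the result does not mean that these lists were unchanged. Keratinocyte markers summed to 33740 to 38719 CPM in CTR and 57872 to 75232 CPM in SKO, with 4 of 10 genes higher and 2 lower. The 4 were genes of the differentiating layers, with Krt1 at 2485 and 18346 CPM, Krt10 at 15633 and 31098 CPM, Lor at 1187 and 2114 CPM and Flg at 224 and 446 CPM in CTR and SKO. The 2 were the basal genes Krt15, at 2680 and 1842 CPM, and Itga6, at 376 and 293 CPM, while basal Krt5 and Krt14 did not pass. Langerhans cell markers (5 of 7 higher) summed to 252 to 322 CPM in CTR and 345 to 480 CPM in SKO. T cell markers (3 of 8 higher, 1 lower, 3 not tested) summed to 22.1 to 34.3 and 27.7 to 36.3 CPM. Among them Thy1, at 16.0 and 9.28 CPM, fell. Trbc2, at 8.78 and 16.2 CPM, rose, as did the scarce Cd3e, at 0.160 and 0.887 CPM, and Trdc, at 0.283 and 1.43 CPM. Melanocyte markers (4 of 7 higher, 1 lower) summed to 239 to 352 and 323 to 543 CPM. Hair matrix markers (8 of 10 lower) summed to 3269 to 5913 and 295 to 2125 CPM. Macrophage and neutrophil markers (0 of 8 called, 5 not tested) summed to 10.0 to 16.7 and 8.89 to 11.2 CPM, with Ly6g at 0 in all CTR libraries. The part of these cells and layers in the values of the 10 genes was not tested.

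Genes around the feedback loop were taken from 7 lists, and of their 89 tested genes 8 were higher and 12 lower in SKO (22.5% called, beside 23.7% of all tested genes). The calls of all genes named below as risen or fallen ended in both the hair shaft and the Xist fits, but the fold changes behaved differently. Those of Ets1 (1.33, then 1.22 and 1.22 on the log2 scale), Hbegf (0.76, then 0.77 and 0.76) and Ereg (0.84, then 0.97 and 1.29) stayed as large or nearly so. Those of Dusp2 (-2.15, then -0.20 and -0.68), Elf5 (-1.62, then -0.18 and -0.47) and Braf (-0.50, then 0.021 and 0.021) shrank. These genes were picked as examples after their values were seen, and the direction of change did not set which values stayed. Those of the fallen Fgf18 (-0.91, then -0.90 and -1.30) and Ccnd1 (-0.41, then -0.36 and -0.45) stayed as large or nearly so. That of the risen Ier3 (0.75, then 0.35 and 0.42) shrank. Of 7 other MAP kinase phosphatases only Dusp2 passed the test. This nuclear phosphatase gene had 13.0 ± 3.55 CPM in CTR and fell to 2.90 ± 1.88 CPM (-2.15 on the log2 scale, SE 0.41, adjusted p = 0.00548), while the abundant Dusp7 had 94.5 ± 5.24 and 98.3 ± 12.4 CPM. None of 13 other tested RAS and ERK inhibitors passed, 5 of them with a higher mean in SKO. The most abundant were Dab2ip, a RAS GTPase-activating protein gene, at 145 and 149 CPM, and Rasa1 at 101 and 90.0 CPM.

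Of 22 genes of the cascade itself, 2 rose and 2 fell, with a list median of -0.032. Mapk3, which encodes ERK1, had 185 ± 11.9 CPM in CTR and rose to 229 ± 18.9 CPM (0.31 on the log2 scale, adjusted p = 0.0220). Braf fell from 93.0 ± 6.60 to 66.0 ± 13.3 CPM and Rps6ka3, an ERK-activated kinase gene, from 167 ± 9.55 to 125 ± 17.1 CPM (-0.50 and -0.41, adjusted p = 0.0207 and 0.0146). Without CTR 1 the Mapk3 call ended (adjusted p = 0.0620), and without CTR 2, SKO 2 or SKO 4 that of Braf (up to 0.0570). Upstream, 4 of 10 tested FGF ligand and receptor genes fell, beside 12.2% of all genes, and 0 rose, with a median of -0.21. Leaving out 1 library gave 2 to 5 lower and 0 to 1 higher, and 1 was higher with upper quartile factors, no count filter, DESeq2, limma-voom or a robust fit. Fgfr2, the main keratinocyte FGF receptor, fell from 249 ± 15.8 to 161 ± 13.3 CPM (-0.63, SE 0.08, adjusted p = 0.00110), and Fgfr3 from 200 ± 13.1 to 164 ± 12.1 CPM (adjusted p = 0.0265, up to 0.0901 without 1 library). The fourth, the ligand gene Fgf5, lay under 1 CPM in both groups. Fgf18, a ligand of the resting follicle, fell from 5.95 ± 1.36 to 3.17 ± 0.885 CPM (adjusted p = 0.0199, up to 0.0537 without CTR 1 or CTR 4). Of 10 EGFR family genes the ligand genes Ereg and Hbegf rose, to 78.1 ± 11.0 and 15.2 ± 2.46 CPM from 43.5 ± 7.90 and 8.99 ± 1.69, and the receptor gene Erbb2 fell from 172 ± 9.99 to 124 ± 9.57 CPM.

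Among 11 other tested ETS factor genes, 2 rose and 2 fell. Ets1 rose to 10.8 ± 0.794 CPM from 4.28 ± 0.773 (1.33 on the log2 scale, SE 0.14, adjusted p = 0.000513), and Elk3, a ternary complex factor gene, from 9.75 ± 0.988 to 21.4 ± 6.86 CPM (1.13, adjusted p = 0.00465). T cells and stromal cells also express Ets1, and their part in this value was not tested. Elf5 fell from 45.2 ± 10.1 to 14.7 ± 6.50 CPM (-1.62) and Ets2 from 256 ± 19.1 to 195 ± 15.1 CPM (-0.39; adjusted p = 0.00517 and 0.00922). Of 16 genes that ERK signalling is known to induce, 2 rose and 2 fell, with a median of 0.026. Ier3, an early response gene, rose from 56.4 ± 9.60 to 94.4 ± 15.5 CPM (0.75, adjusted p = 0.00511) and Myc from 108 ± 9.52 to 131 ± 9.38 CPM (0.29, adjusted p = 0.0326, up to 0.0883 without 1 library). Ccnd1, the cyclin D1 gene, fell from 219 ± 15.9 to 165 ± 20.7 CPM (-0.41, adjusted p = 0.0148) and Emp1 from 999.9 ± 67.6 to 806 ± 58.4 CPM (-0.31, adjusted p = 0.0237, up to 0.0679 without 1 library).

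**Figure D4:**
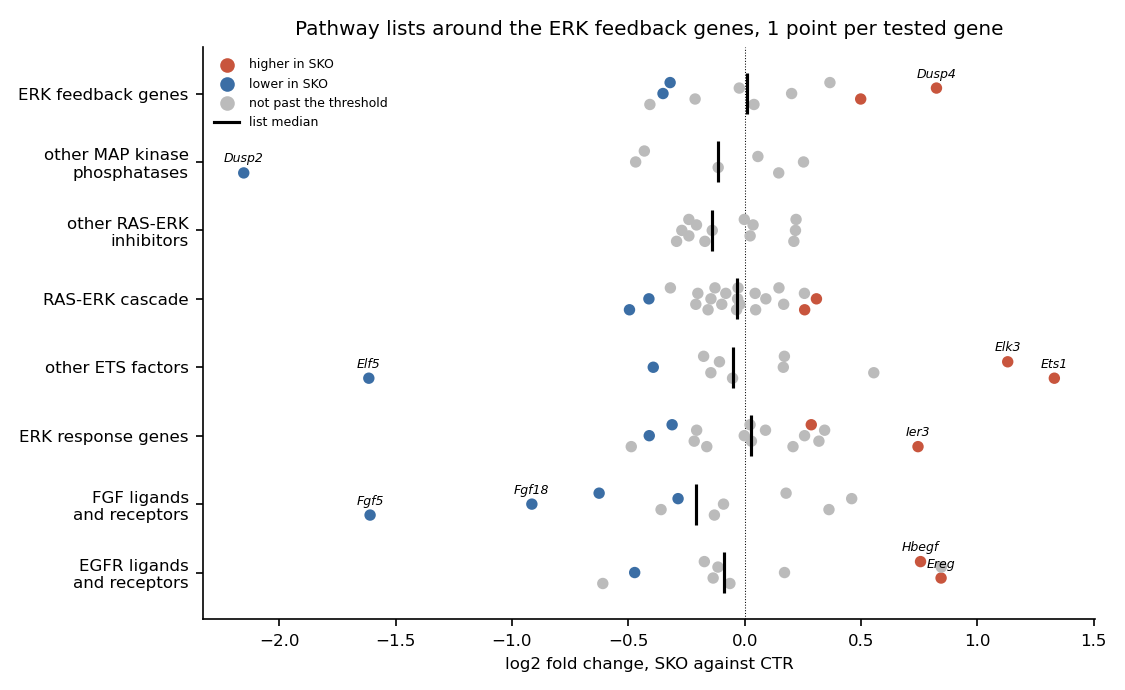
Log2 fold change, SKO against CTR (x axis), of every tested gene of the feedback genes and 7 surrounding lists (y axis); red points rose, blue points fell, grey points did not pass the threshold, and black ticks are list medians. Called genes lie on both sides of 0 in the feedback, cascade, ETS, ERK response and EGFR lists, and on the lower side only among FGF genes and other MAP kinase phosphatases.

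The genes whose deviations from their group means were most like those of Dusp4 over the 8 libraries were Ints2, Pdp2 and Psmd1. Their root mean square differences from Dusp4, in standardised units, were 0.239, 0.266 and 0.269, against a median of 1.42 over 11580 genes. For Dusp6 they were Qsox1, Pus10 and Primpol (0.334, 0.337 and 0.338). As the smallest of so many differences over only 8 libraries, these values had to lie far below the median, and no test of likeness was run.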

How the data were processed

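RNA from 8 tail epidermis samples was measured by poly-A sequencing. The deposited table held unnormalized counts of reads by gene. STAR 2.4.1d, featureCounts 1.4.6, edgeR 3.8.6 and build GRCm38 are named in the submitters' processing notes, and the sources used here do not give the annotation release or the strand setting. Symbols, positions and exon lengths came from GENCODE M21 (46488 of 46983 identifiers matched). Columns were matched by mouse identifier, and replicate numbers only name mice. Mice of neighbouring numbers (1 CTR and 1 SKO each) deviated together from their group means in all 4 pairs (correlations 0.30, 0.40, 0.15 and 0.21 over 15638 genes). SKO 3, however, was more like CTR 2 than like its partner CTR 3, and the labels state no shared litter or day. Every pair of libraries within a group differed by more than sampling noise. Tests used edgeR 4.0.16 (R 4.3.3; trimmed mean of M values, filterByExpr, quasi-likelihood test, two-sided, group as the only term) after a check on simulated data. CPM values use these factors, and log2 CPM a prior count of 2. Intervals are 95% from the fitted SE; exact permutation tests ran over 70 assignments. The alternatives numbered 19. The genes and lists were chosen with earlier results of these data known. Named genes were the 10, and per list the called genes that changed most, up to 4, if they averaged 1 CPM or more (with fewer than 2, the most abundant were added). One gene that this rule names is not reported here. Intervals and floors cover counting or fitted error only.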

Additional observations from a re-analysis of the deposited data

How the results depend on the processing

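Of the 4 called genes, Dusp4, Dusp5 and Etv5 kept their calls in all 8 alternatives of normalization, filter and tool, and Spred2 in 7. With no count filter 1 of the 10 genes was lower. Leaving out 1 library gave 1 to 2 higher and 0 to 2 lower. With Xist as a further term 0 of the 10 were higher and 0 lower, and 45 of all genes were higher and 32 lower (77 in all, against 3700). With hair shaft markers as a further term these were 0, 0, 92, 43 and 135. The share of calls that were higher was 48.4% with neither term, 58.4% with Xist and 68.1% with hair shaft markers. Of the surrounding lists, 0 genes were then higher and 0 lower with Xist, and 1 and 0 with hair shaft markers. Log2 fold changes that changed sign were, with Xist, those of Dusp5 (0.057), Spry1 (0.046), Spry4 (0.92), Spred1 (0.31), Dab2ip (-0.055), Rasa1 (0.067) and Braf (0.021). With hair shaft markers they were those of Dusp5 (0.0015), Spry1 (0.10), Spry4 (0.87), Spred1 (0.22), Spred2 (0.032), Dab2ip (-0.048) and Braf (0.021). With upper quartile factors Spred1 was at 0.0016. Both terms follow the groups, so these fits leave little to estimate the genotype from. Leaving out 1 library, Dusp6 ranged from -0.076 to 0.19 and Spred1 from -0.085 to 0.049, and the mean log2 CPM differences of fibroblast, muscle and Schwann cell, and macrophage and neutrophil markers from -0.23 to 0.18, -0.30 to 0.47 and -0.024 to 0.19. The cause was not tested. Spry4 had the fewest reads of the 10 genes, 28 to 103 per library, and counting error was not separated from the spread between mice. The alternatives for lists, markers, ratios and pairing were chosen after seeing the data. With mice of neighbouring numbers as a replicate block, 3 of the 10 genes were higher and 3 lower. Beside Spry1 (-0.21) and Etv4 (0.37), which passed in that fit, the block changed no call of a gene named here. Of all genes 2016 were then higher and 2297 lower.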
